A study of Equus caballus with 6 samples.

Results

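The CD-numbered antigens are cell surface proteins catalogued by the antibodies that recognise them, and many mark a class of leukocyte. On the bovine GeneChip used here, 43 of 9155 named genes carried a symbol made of CD, digits and at most 1 letter from A to H or Z, with CD14, CD36, CD74 and CD151 left out. These 43 genes were read by 59 of 24016 probe sets. They were grouped as T cell (13 genes), B cell (4), NK cell (1), myeloid (7) and broadly expressed (18) antigens, the last group including antigens of vessels and stroma. The rule reads symbols only, not signals.

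Total RNA from lamellae of a right foot was read on 6 arrays, 3 from diseased tissue (laminitis replicates 1, 3 and 4) and 3 from normal tissue (normal replicates 2, 3 and 4). Lamellae are the interleaved epidermis and dermis that hold the coffin bone within the hoof wall, and laminitis is the disease in which that hold fails. How laminitis arose, its stage, and the age, breed and treatment of the horses are not given in the sources used here, nor whether each sample is a different animal. The p-values therefore rest on sample-to-sample spread that could be purely technical. Horse RNA was hybridised to bovine probes, so a low signal can come from sequence mismatch as well as from little RNA, and no antigen is ranked above another by its signal. In whole tissue, fewer cells of a type and less RNA per cell cannot be told apart.

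T cells recognise antigen through a receptor whose signal is carried into the cell by the invariant CD3 chains and CD247, while CD4 or CD8 binds the presenting molecule and CD28, CD2 and their ligands adjust the response. B cells signal through CD79A and CD79B, and macrophages and dendritic cells carry scavenger receptors such as CD68 and costimulatory ligands such as CD80, CD83 and CD86. Other CD antigens, among them the tetraspanins CD9, CD63 and CD81, the complement regulators CD46 and CD55 and the hyaluronan receptor CD44, occur on epithelium, vessels and fibroblasts too.

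No CD antigen passed the test for a difference between laminitis and normal lamellae, and their differences lay on both sides of 0. A probe set was tested where its signal exceeded its array's median on at least 3 of 6 arrays, and 25 of the 43 antigens met this (58.1%), against 67.2% of all named genes. In limma with Benjamini-Hochberg adjustment over 12519 probe sets, 0 of the 25 had an adjusted p under 0.05, as had 0 of 6151 genes (percent called 0). The smallest adjusted p among the antigens was 0.494, shared by CD2, CD247 and CD34. At an unadjusted p under 0.05 there were 3 antigens, CD34 higher and CD2 and CD247 lower, against 9.79% of all tested genes (5.27% higher and 4.52% lower). Of the 25 antigens 9 had a positive and 16 a negative log2 difference, laminitis minus normal, with a median of -0.13, where the median of all tested genes was -0.029 and 46.4% of them were positive.

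The groups did not overlap for 9 of the 25 antigens. All laminitis arrays lay above all normal arrays for CD34, CD44, CD52, CD80 and CD4 and below them for CD2, CD247, CD96 and CD48. CD4 and CD80 each had another tested probe set, by which the groups overlapped. Over all tested genes the groups did not overlap for 17.1% (8.7% higher and 8.36% lower). A difference of at least 2-fold was seen for 2 antigens, CD48 and CD83, both lower, against 2.21% of genes lower and 2.44% higher. The log2 differences of CD2, CD83 and CD48 lay below the range from -0.96 to 0.99 that held the middle 95% of all tested genes, and no antigen lay above it. For 17 of the 25 antigens the unadjusted limma 95% interval stayed within a 2-fold difference in signal either way. Larger differences in signal lay outside the interval at this number of arrays. For the other 8 the interval reached beyond 2-fold. CD4 and CD80 were among the 17. The intervals of their other tested probe sets, from -1.40 to 0.053 and from -1.01 to 0.090 on the log2 scale, reached beyond 2-fold.

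**Figure D1:**
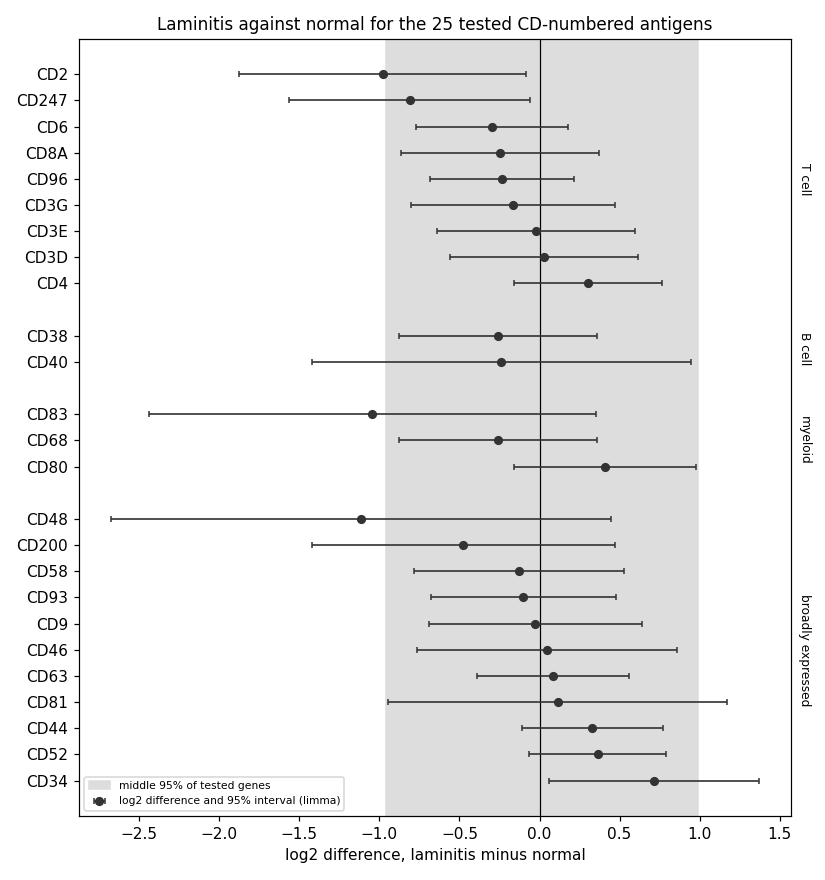
Log2 difference, laminitis minus normal, of the 25 tested CD antigens, with points for limma estimates and bars for 95% intervals, over the grey range of the middle 95% of tested genes. The intervals of CD2, CD247 and CD34 exclude 0 before adjustment for the number of tests, and those of CD48 and CD83 are the widest.

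Among T cell antigens 9 of 13 were tested, of which 7 had a negative and 2 a positive log2 difference, with a median of -0.23. CD2, an adhesion receptor of T and NK cells that binds CD58, had signals of 106, 64.2 and 177 on laminitis replicates 1, 3 and 4, and of 259, 188 and 189 on normal replicates 2, 3 and 4. All laminitis arrays lay below all normal arrays, with replicate 3 lowest and replicate 4 near the normal range. The log2 difference was -0.98 ± 0.38 (SE, n = 3 per group, limma adjusted p 0.494), or 1.97-fold lower in the mean. It ranged from -1.35 without laminitis replicate 4 to -0.61 without laminitis replicate 3. Dimmer CD2 probe sets, below the array median on every array, gave -0.33 and 0.049, with overlapping groups.

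CD247, the zeta chain that carries most signalling motifs of the T cell receptor, showed a like order of arrays, with 131, 94.9 and 217 in laminitis and 235, 273 and 226 in normal lamellae. Laminitis replicate 3 was again lowest, and replicate 4 lay just under the lowest normal array. The log2 difference was -0.81 ± 0.32 (n = 3 per group, limma adjusted p 0.494), from -1.13 without laminitis replicate 4 to -0.53 without laminitis replicate 3. The chains that pair with CD247 in the receptor did not separate the groups. CD3E read 170, 200 and 253 in laminitis and 222, 257 and 159 in normal tissue, or -0.021 ± 0.26 on the log2 scale with an interval from -0.64 to 0.60. CD3G read 150, 247 and 165 against 167, 250 and 205, a log2 difference of -0.16 ± 0.27 (interval from -0.80 to 0.47). CD3D read 123, 191 and 211 against 170, 161 and 171, a log2 difference of 0.028 ± 0.25 (interval from -0.56 to 0.61), and its other tested probe set gave -0.10 ± 0.24. The normal arrays of CD3D spanned 10.4 signal units and the laminitis arrays 87.7. In the horse annotation CD3D and CD3G are neighbours, with CD3E close by, whereas CD247 lies elsewhere.

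The coreceptors gave no common direction. CD4, which binds MHC class II on helper T cells and on some myeloid cells, read 221, 232 and 216 in laminitis and 157, 179 and 211 in normal lamellae by its brighter probe set. The laminitis arrays were close together and all above the normal arrays, by 4.46 signal units at the nearest pair, and the log2 difference was 0.30 ± 0.20 (limma adjusted p 0.648). Its other tested probe set pointed the opposite way, with 63.8, 97.5 and 45.9 in laminitis and 97.6, 95.0 and 125 in normal tissue, or -0.67 ± 0.31 on the log2 scale (limma adjusted p 0.542). The 2 probe sets thus differed by 0.97 on the log2 scale, and the direction for CD4 rests on which is read. CD8A, the coreceptor chain of cytotoxic T cells, read 216, 131 and 221 against 205, 250 and 204 (-0.25 ± 0.26), and its difference was -0.0012 without laminitis replicate 3. Its neighbour CD8B was not tested, being below the median on every array. CD8B read 38.5, 42.9 and 44.9 in laminitis and 29.0, 34.4 and 27.2 in normal tissue, so the groups did not overlap. The log2 difference was 0.48, from 0.41 to 0.58 as each array was left out. It was 0.17 with 64 added to every signal, which by arithmetic shrinks a difference between signals this dim.

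Of the T cell adhesion and costimulatory antigens, CD6, a scavenger-type receptor of T cells, read 239, 308 and 228 in laminitis and 304, 335 and 306 in normal lamellae. Laminitis replicate 3 lay among the normal arrays while replicates 1 and 4 lay below them, and the log2 difference was -0.30 ± 0.20 (limma adjusted p 0.658), with -0.15 by its other tested probe set. CD96, a receptor of T and NK cells for nectin-type ligands, read 207, 199 and 227 against 284, 229 and 234. All laminitis arrays were lower, by 2.13 signal units at the nearest pair, and the log2 difference was -0.23 ± 0.19 (limma adjusted p 0.719). The remaining 4 T cell antigens, CD5, CD7, CD28 and CD8B, had no tested probe set. Besides CD8B, CD28 by its brighter probe set had a log2 difference of 0.97, with 57.0, 32.8 and 42.0 against 17.0, 16.4 and 37.3, while its other probe set gave -0.26, and CD5 and CD7 gave 0.17 and -0.55 with overlapping groups.

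**Figure D2:**
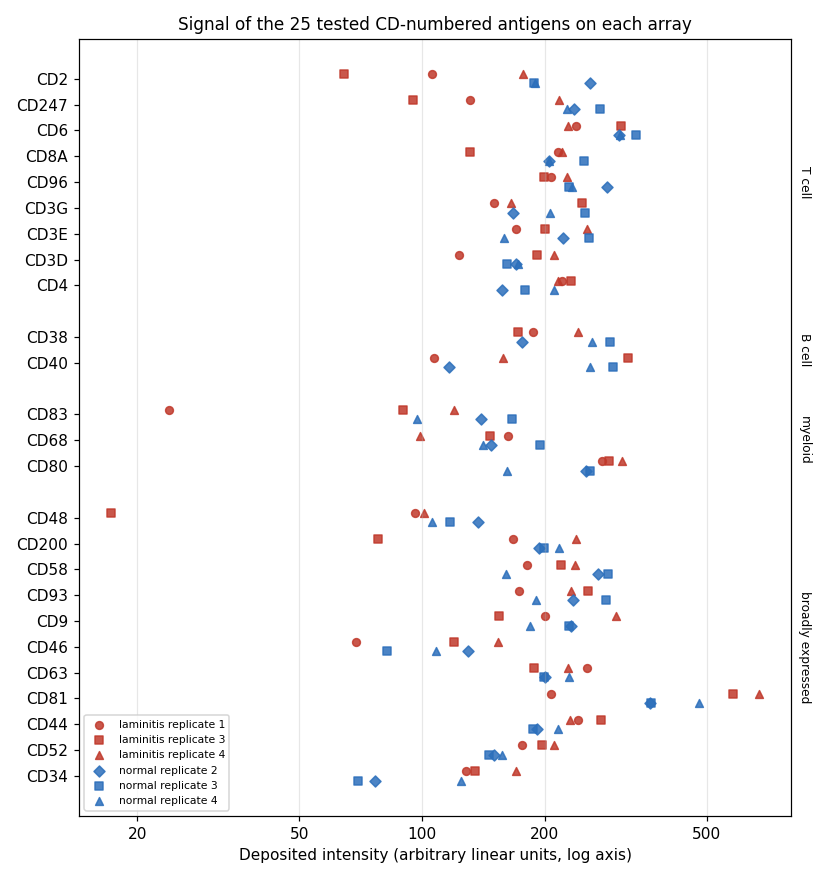
Deposited intensity, on a log axis, of the 25 tested CD antigens on each of 6 arrays, with red for laminitis, blue for normal and a marker shape for each replicate number. Laminitis replicate 3 is the lowest array for CD2 (64.2), CD247 (94.9) and CD48 (17.3). Laminitis replicate 1 is the next lowest for these, at 106, 131 and 96.2, and reads 24.0 for CD83.

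B cell antigens were sparsely measured, with 2 of 4 tested. CD38, an NAD-consuming ectoenzyme of plasma cells and activated lymphocytes, read 187, 172 and 241 in laminitis and 176, 289 and 260 in normal lamellae, a log2 difference of -0.26 ± 0.26 (limma adjusted p 0.772). CD40, the receptor through which helper T cells activate B cells and dendritic cells, read 107, 320 and 158 against 117, 294 and 258. Its arrays were spread within both groups, with laminitis replicate 1 and normal replicate 2 low, and the log2 difference was -0.24 ± 0.50 (limma adjusted p 0.893). The dimmer tested CD40 probe set was less spread and gave -0.30 ± 0.21, with 110, 130 and 98.4 against 118, 155 and 144. CD79A, a signalling chain of the B cell receptor, read 16.5, 22.3 and 19.2 in laminitis and 18.9, 11.6 and 26.4 in normal tissue, below the median on every array. CD180, a Toll-like receptor homologue of B cells, was above the median on 1 array and had a log2 difference of 0.38 with overlapping groups. The only NK cell antigen, CD244, a receptor for CD48, was below the median on every array, from 5.73 to 19.0, with a difference of -0.14. CD79B and CD163 are not analysed here.

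Myeloid antigens were tested for 3 of 7 genes, with log2 differences of -1.04 for CD83, -0.26 for CD68 and 0.41 for CD80. CD68, a lysosomal glycoprotein of macrophages, read 162, 147 and 98.7 in laminitis and 147, 195 and 141 in normal lamellae, with overlapping groups (-0.26 ± 0.26, interval from -0.88 to 0.36, limma adjusted p 0.773). CD80, a ligand of CD28 and CTLA4 on antigen-presenting cells, read 276, 287 and 310 against 252, 258 and 161 by its brighter probe set. Here all laminitis arrays were higher, with normal replicate 4 lowest, and the log2 difference was 0.41 ± 0.24 (limma adjusted p 0.619). The other CD80 probe set, also tested, gave -0.46 ± 0.23 (limma adjusted p 0.575), with 141, 191 and 174 in laminitis and 273, 241 and 185 in normal tissue. As for CD4, the direction for CD80 depends on the probe set, and the strand each targets is not given.

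CD83, a marker of mature dendritic cells, read 24.0, 89.8 and 119 in laminitis and 140, 166 and 97.3 in normal lamellae by its tested probe set. The groups overlapped through laminitis replicate 4, and the log2 difference of -1.04 ± 0.59 (limma adjusted p 0.603) became -0.34 without laminitis replicate 1. It passed the brightness filter through the 3 normal arrays and laminitis replicate 4. A dimmer CD83 probe set gave 0.22. The other 4 myeloid antigens were not tested. CD86, which shares its receptors with CD80, lay between 9.79 and 13.1 on every array, and CD1B, CD302 and the lectin CD209 had log2 differences of 0.27, -0.34 and 0.37 with overlapping groups.

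**Figure D3:**
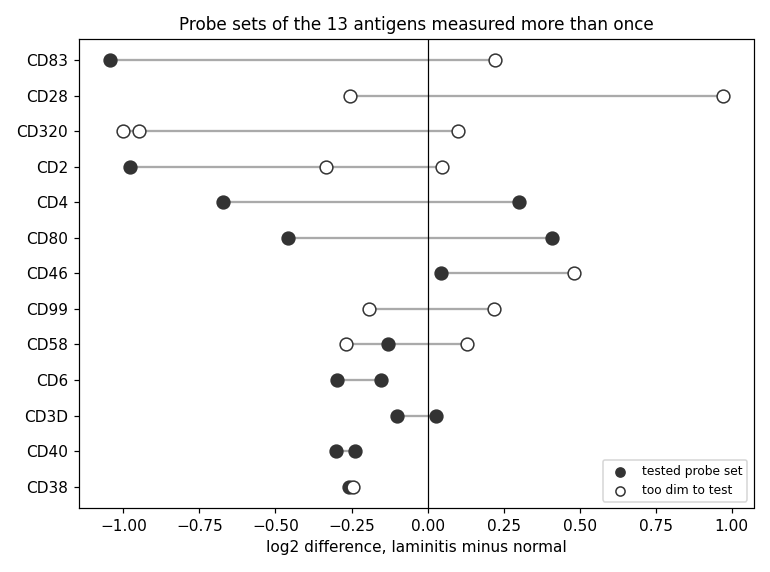
Log2 difference, laminitis minus normal, of every probe set of the 13 CD antigens read by more than 1, with filled circles for tested probe sets and open circles for those too dim to test. The probe sets of CD4 and CD80 lie on opposite sides of 0 although both were tested, while those of CD40, CD6 and CD38 lie on the same side.

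Over the 13 antigens with several probe sets, the probe sets pointed the same way for 4, CD6, CD38, CD40 and CD46. Of the 5 with several tested probe sets, CD6 and CD40 agreed in sign, and CD3D, CD4 and CD80 did not. When a gene's tested probe sets were averaged, 6 of the 25 antigens had a positive difference instead of 9, and 0 of 9 T cell antigens instead of 2.

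The broadly expressed antigens had 11 of 18 genes tested, 6 positive and 5 negative, with a median of 0.045. CD34, a sialomucin of vascular endothelium, blood progenitors and some stromal cells, read 128, 135 and 170 in laminitis and 76.6, 69.5 and 125 in normal lamellae. All laminitis arrays were higher, normal replicate 4 coming within 3.40 signal units of the lowest of them. The log2 difference was 0.71 ± 0.28 (n = 3 per group, limma adjusted p 0.494), or 1.64-fold higher in the mean, with leave-one-out values from 0.55 (normal replicate 3 omitted) to 0.97 (normal replicate 4 omitted). CD34 passed the brightness filter through all 3 laminitis arrays and 1 normal array, so its testing itself depended on the laminitis signal. The groups overlapped for the other endothelial genes tested. CD93, a lectin-like receptor of endothelium and monocytes, read 173, 255 and 231 against 235, 282 and 191 (-0.10 ± 0.25), and PECAM1, an endothelial junction protein, had a log2 difference of 0.043 ± 0.21.

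CD44, the hyaluronan receptor of keratinocytes, fibroblasts and leukocytes, read 242, 275 and 230 in laminitis and 191, 187 and 215 in normal lamellae. All laminitis arrays were higher, and the log2 difference was 0.33 ± 0.19 (limma adjusted p 0.601), staying between 0.26 and 0.39 as each array was left out. CD52, a short glycoprotein of lymphocytes and monocytes, read 175, 197 and 211 against 150, 146 and 157. Its normal arrays lay within 10.9 signal units of each other and below all laminitis arrays, at 0.36 ± 0.18 on the log2 scale (limma adjusted p 0.569), or 0.30 to 0.44 with 1 array left out. The pooled within-group SD on the log2 scale was 0.12 for CD44 and 0.10 for CD52, against a median of 0.32 over the 25 antigens and also over all tested genes.

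CD48, a ligand of CD244 and CD2 on leukocytes, had the most negative difference. It read 96.2, 17.3 and 101 in laminitis and 137, 117 and 106 in normal lamellae, so all laminitis arrays were lower, but replicates 1 and 4 by little. The log2 difference of -1.11 ± 0.66 (limma adjusted p 0.621) became -0.28 without laminitis replicate 3. CD200, an inhibitory ligand for myeloid cells, had the same array lowest, with 167, 77.8 and 239 against 194, 199 and 217 (-0.48 ± 0.40). CD58, a ligand of CD2, read 181, 220 and 237 against 270, 286 and 160 (-0.13 ± 0.28).

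The tetraspanins, which organise other membrane proteins into microdomains, overlapped between groups. CD81 read 207, 579 and 670 in laminitis and 363, 365 and 478 in normal lamellae. Laminitis replicate 1 was the lowest of all arrays and replicates 3 and 4 the highest, and the log2 difference of 0.11 ± 0.45 ranged from -0.20 to 0.64 with 1 array left out. CD63 varied least of the 25 antigens, its highest array being 1.35-fold above its lowest, with a log2 difference of 0.082 ± 0.20 and an interval from -0.39 to 0.56. CD9 had -0.027 ± 0.28. Of the complement regulators, CD46 had 0.045 ± 0.34, and CD55, above the median on 1 array only, had 0.53 with 67.4, 90.7 and 78.3 against 32.9, 66.7 and 71.7.

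CD47, the signal by which cells inhibit phagocytosis through SIRPA, was below the median on every array and not tested. It read 82.9, 53.7 and 28.8 in laminitis and 27.8, 24.9 and 30.7 in normal tissue, so laminitis replicate 4 lay within the normal range. The log2 difference was 0.86, from 0.50 without laminitis replicate 1 to 1.27 without laminitis replicate 4. Of the other untested broad antigens, CD53, CD69 and CD164 had differences of -0.75, -0.35 and -0.52, CD99 had -0.19 and 0.22 by its probe sets, and the probe sets of CD320 ran from -1.0 to 0.10. In all 5 the groups overlapped.

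**Figure D4:**
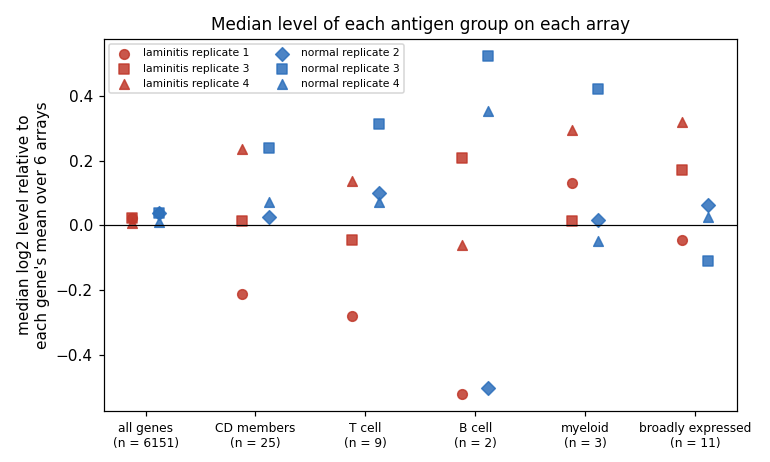
Median over each group's tested antigens of the log2 level relative to that gene's mean over 6 arrays, 1 point per array, with all 6151 tested genes at the left. Over the 25 antigens the laminitis arrays run from -0.21 to 0.24 and the normal arrays from 0.027 to 0.24, so the groups overlap, while all genes together lie between 0.007 and 0.039.

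Array by array, the antigens did not divide into laminitis and normal. The median level over the 25 antigens, relative to each gene's mean over the 6 arrays, was -0.21, 0.013 and 0.24 on the log2 scale on laminitis replicates 1, 3 and 4 and 0.027, 0.24 and 0.073 on normal replicates 2, 3 and 4. Over the 9 T cell antigens it was -0.28, -0.045 and 0.14 against 0.10, 0.31 and 0.073, with laminitis replicate 4 among the normal arrays. Laminitis replicate 3 was the lowest array for 9 of the 25 antigens and laminitis replicate 1 for 7, where each was lowest for 18% and 20.7% of all tested genes. Normal replicate 3 was the highest array for 10 antigens, laminitis replicate 4 for 8 and normal replicate 4 for 0, against 17.1%, 14.4% and 14.5% of all tested genes.

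Genes that act with these antigens were taken from lists of their own, of which 57 of 103 genes were on the array and 30 were tested, with 0 at a limma adjusted p under 0.05 and 3, BTK, CYBB and CD36, at an unadjusted p under 0.05, where 9.79% of all tested genes had one. Of 6 tested T cell signalling genes 0 had an unadjusted p under 0.05, and their median log2 difference was 0.012. The kinases LCK and ZAP70, which act on the CD3 chains and CD247, had -0.024 ± 0.32 and 0.030 ± 0.25, the adaptor LAT had 0.13 ± 0.21, and FYB1 and FYN, the smallest p of this list, had 0.42 ± 0.36 and -0.38 ± 0.44. PTPRC, the pan-leukocyte antigen CD45, was too dim to test. Of 6 B cell and plasma cell genes 5 were negative, with a median of -0.15. BTK, a kinase of B cell receptor signalling, read 138, 137 and 109 in laminitis and 188, 184 and 172 in normal lamellae, with all laminitis arrays lower and a log2 difference of -0.51 ± 0.19 (limma adjusted p 0.490). JCHAIN, the joining chain of polymeric immunoglobulin, had 0.47 ± 0.33.

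Of the NK and cytotoxic genes 3 of 12 on the array were tested, with a median of -0.77. The NK receptor NCR1 read 16.1, 34.3 and 175 against 139, 124 and 145, with a log2 difference of -1.56 ± 0.79 (limma adjusted p 0.572). It passed the brightness filter through the 3 normal arrays and laminitis replicate 4. Granzyme B, GZMB, had -0.77 ± 0.34 and passed through normal replicates 2 and 4 and laminitis replicate 3. Perforin, PRF1, read 163, 151 and 132 against 120, 172 and 130, a log2 difference of 0.093 ± 0.22. The groups overlapped for each of the 3 genes. Their summed signal did not overlap, from 250 to 346 in laminitis and from 372 to 401 in normal lamellae. That of the 6 B cell and plasma cell genes did not overlap either, from 693 to 753 against 772 to 841. The sums of the T cell signalling, myeloid, and partner and ligand lists overlapped. Of 7 tested myeloid genes 4 were positive and 3 negative (median 0.11). The phagocyte oxidase subunit CYBB, with 233, 265 and 256 against 37.4, 40.8 and 107, and the scavenger receptor CD36, with 52.8, 64.1 and 26.3 against 104, 116 and 114, differed in opposite directions, by 2.20 ± 0.41 (limma adjusted p 0.222) and -1.32 ± 0.34 (limma adjusted p 0.345). CD36 passed the brightness filter through the 3 normal arrays alone, and CYBB through the 3 laminitis arrays and 1 normal array, so that their testing depended on the group where each was high. Among 8 tested partners and ligands the median was -0.072. SIRPA, the receptor of CD47, had 0.51 ± 0.28, and ITGB2, the shared chain of leukocyte integrins, had -0.38 ± 0.26.

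Markers of the other cells in lamellae were read beside these values. Keratinocyte keratins KRT5, KRT14, KRT15 and KRT17 were bright enough to test, as was PECAM1, while the endothelial marker VWF was below every array's median. The summed signal of 6 keratinocyte markers ran from 1619 to 2773 in laminitis and from 1107 to 2021 in normal tissue, that of 7 fibroblast markers from 8312 to 29690 against 8512 to 30600, that of 4 endothelial markers from 470 to 601 against 509 to 623, and that of 3 smooth muscle markers from 2232 to 3590 against 3247 to 3955. These ranges overlap, but a sum weights its brightest probe sets most, and single markers separated the groups. The fibroblast proteoglycan DCN read 724, 787 and 1199 in laminitis and 2365, 1685 and 4898 in normal tissue (-1.61 ± 0.42 on the log2 scale, limma adjusted p 0.345). The smooth muscle protein TAGLN read 721, 1203 and 1747 against 1767, 2056 and 2322 (-0.83 ± 0.34, limma adjusted p 0.506), and the fibroblast receptor PDGFRA was higher on every laminitis array (0.35 ± 0.20). The keratinocyte marker DSC2, too dim to test, read 32.5, 23.7 and 16.8 against 78.9, 68.9 and 37.1 (-1.32). The groups overlapped for the other keratinocyte markers. The summed signal of 2 mast cell markers also overlapped, from 289 to 417 against 289 to 393, and erythrocyte markers were too dim to test. The summed signal of 4 neutrophil markers did not overlap, from 1495 to 12990 in laminitis and from 503 to 983 in normal tissue. In laminitis this sum was mostly S100A8 and S100A9. S100A9 read 2947, 2392 and 486 against 190, 35.0 and 43.1, and passed the brightness filter through the laminitis arrays and normal replicate 2. S100A8 alone read 9810, 7256 and 779 against 429, 133 and 110. Which cells gave the S100A8 and S100A9 signal was not tested. ELANE and MPO, also on the neutrophil list, were lower on every laminitis array. Their log2 differences were -1.05 ± 0.34 and -0.44 ± 0.21. ELANE passed the brightness filter through the 3 normal arrays alone, whereas MPO was above the median on all 6 arrays. Of the listed neutrophil genes too dim to test, CAMP was lower on every laminitis array (-1.09) and LTF overlapped (-0.36). The part of these markers in the antigens' values was not tested.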

How the data were processed

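The deposited intensities are linear, 1 per probe set and array, and lie at a common level. Every array has a trimmed mean (2% cut from either end) of 150.02 or 150.03. The submitters' processing notes name GCRMA, with no version, but a common trimmed mean on a linear scale is not what GCRMA yields, so the step that made the values is not settled. Array medians ran from 86.7 to 96.6. Detection calls were not used, so a dim value is not known to be above background.

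Symbols are bovine, from GEO's platform annotation, and 112 control probe sets were left out. Of the 43 antigen symbols, 39 are also in RefSeq's annotation of horse assembly TB-T2T, used for names and neighbours only.

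Values were put on the log2 scale without offset and fitted with limma 3.58.1 (lmFit, eBayes; R 4.3.3). Tests were two-sided, with p adjusted by the Benjamini-Hochberg method across the 12519 probe sets tested. The tested probe set of highest mean stood for its gene, and untested antigens are given as plain differences of log2 means. Errors are limma standard errors and intervals are 95%, unadjusted. The fit was run on simulated independent arrays as a check of the code only, which does not bear on the differences given here.

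Values on every array are given for any antigen called, for the 3 of smallest p and the 2 of highest mean in each group, and for a fixed list of lineage antigens. The 2 genes of smallest p stand for each list of related genes. CD48 and further antigens were added after their values were seen. The antigens and lists were chosen with earlier results of these data known. No pair of arrays held identical values. The 14 alternatives changed the filter, normalization, offset, variance model, replicate block, probe set rule or number of arrays.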

Additional observations from a re-analysis of the deposited data

How the results depend on the processing

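Across the 14 alternatives, 0 CD antigens passed at an adjusted p under 0.05, and the smallest adjusted p of the 25 tested antigens was 0.203. Of these antigens 14 kept their sign in every alternative in which they were tested. The median difference of the antigens moved from -0.13 by less than the 0.176 SD between arrays of a group, running from -0.20 without laminitis replicate 4 to -0.00017 without normal replicate 3. Over all probe sets, 6 passed with the filter on all 6 arrays, 4 with an intensity trend and robust variance, and 0 to 2 with an array left out, 2 without laminitis replicate 4. The antigens at an unadjusted p under 0.05 numbered 0 higher and 0 lower with no filter, 0 and 1 with the filter on all 6 arrays, 2 higher under quantile normalization or median centring, and 0 higher under the trend; leaving out an array gave 0 to 2 higher and 0 to 3 lower. With no filter 43 antigens were tested. The filter on all 6 arrays tested 19 and left out CD2 and CD34, which therefore could not be counted there. Of all tested genes, 7.17% had an unadjusted limma p under 0.05 with no filter and 11.5% with the filter on all 6 arrays. The share was 8.31% under quantile normalization, 9.48% under median centring, 11% under the trend and 6.08% to 12.8% with an array left out. Antigens with all laminitis arrays higher numbered 3 when probe sets were averaged. Those lower numbered 2 with the filter on all 6 arrays, which left CD2 and CD48 untested. In these settings the groups did not overlap, in either direction, for 17.1% and 17.5% of all tested genes. Averaging probe sets turned CD3D to -0.036, CD4 to -0.19 and CD80 to -0.025. Quantile normalization turned CD3E to 0.043 and CD9 to 0.029, and median centring to 0.061 and 0.056. With an array left out, CD3D ran from -0.13 to 0.26, CD3E from -0.22 to 0.13, CD40 from -0.67 to 0.12, CD81 from -0.20 to 0.64, CD93 from -0.25 to 0.061, CD46 from -0.21 to 0.37, CD58 from -0.40 to 0.025, CD63 from -0.016 to 0.20 and CD9 from -0.28 to 0.20. The cause was not tested. Replicate numbers 3 and 4 occur in both groups. Each probe set's group mean was subtracted from its log2 values, and the remainders of a laminitis and a normal array were correlated across tested probe sets. Arrays sharing a number had r of -0.017 and -0.031 for these remainders, where the other pairs ran from -0.042 to 0.060. So few pairs cannot tell whether arrays sharing a number also share an animal or a batch. With the replicate block the difference rests on the arrays numbered 3 and 4 alone, so this fit has less power by design. In it 0 antigens were higher and 0 lower at an unadjusted p under 0.05, against 6.19% of all tested genes. CD3E was 0.16, CD93 0.067, CD58 0.091, CD63 -0.048 and CD9 0.064. The number of arrays limits the precision.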
